A study of Mus musculus with 4 samples.

Results

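Among *Cxcl12-creER*-marked, tdTomato+ cells sorted from mouse femurs, 380 of 9795 called cells were classed as periosteal-like fibroblasts. By the rule used, they carried several of 8 surface and matrix genes and little *Prg4*. A member had a unique molecular identifier (UMI, 1 per captured transcript) of at least 3 of 8 counted genes, *Ly6a*, *Thy1*, *Cd34*, *Dpt*, *Clec3b*, *Pi16*, *Cilp* and *Aspn*. It also had at most 1 UMI each of *Adipoq*, *Tnn* and *Wif1*, none of *Ptprc* or *Pecam1*, and less than 1% of its UMIs from *Prg4*, which encodes the joint lubricant lubricin. The cells were thus chosen by these measured values, so the levels of the counted and limited genes below are a description. Comparisons of levels with other cells carry no test, and only the change after ablation is tested against that of reticular cells. The chosen cells are called low-*Prg4* fibroblasts in the text and members in the plots.

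The mice carried the *Cxcl12-iCreER* transgene, in which regulatory sequence of *Cxcl12* drives a tamoxifen-inducible recombinase, and the R26R-tdTomato reporter. Tamoxifen was given 7 days before the marrow of 1 femur was ablated, and cells were collected 7 days after the operation from the ablated femur (ABL) and from the unoperated contralateral femur (CONT), which is therefore the control of an operated animal. Each of 2 biological replicates gave a CONT and an ABL library. Replicate 1 (Chromium v2) pooled several mice, and replicate and chemistry cannot be told apart. The mice's age is not in the labels of these samples. Libraries held 44784072 UMIs (CONT replicate 1), 22889380 (ABL replicate 1), 40486876 (CONT replicate 2) and 41536563 (ABL replicate 2).

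The periosteum is the fibrous sheath on the outer face of bone. Its outer layer holds fibroblasts that make collagen bundles and proteoglycans, its inner layer holds osteoprogenitors, and tendons and ligaments insert into it. In the marrow space, by contrast, *Cxcl12*-expressing reticular cells, which also express *Lepr* and *Adipoq*, form a network around sinusoids and provide CXCL12 and stem cell factor to hematopoietic cells. After injury to bone, fibroblasts and osteoprogenitors lay down a matrix rich in collagens and in matricellular proteins such as periostin and tenascin-C.

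Most low-*Prg4* fibroblasts came from 1 library. CONT replicate 1 held 30, ABL replicate 1 held 23, CONT replicate 2 held 22 and ABL replicate 2 held 305. Of called cells these were 0.877% (95% exact binomial interval 0.593 to 1.25), 1.60% (1.02 to 2.39), 0.918% (0.576 to 1.39) and 12% (10.8 to 13.3). Only ABL replicate 2 stood apart, while the intervals of both replicate 1 libraries overlapped. Intervals here and below cover counting error only. Of stromal cells, taken as cells without *Ptprc* or *Pecam1* and with at least 5 of 10 mesenchymal genes, the shares were 2.37% (1.59 to 3.39), 3.12% (1.99 to 4.64), 1.13% (0.707 to 1.70) and 17.4% (15.7 to 19.3). Here the intervals of ABL replicate 1 and CONT replicate 2 did not overlap either. An exact two-sided permutation test on 2 against 2 libraries cannot give a p under 0.333, so the share was not tested. A share of sorted cells cannot tell more fibroblasts in the femur from more of them released or marked.

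**Figure D1:**
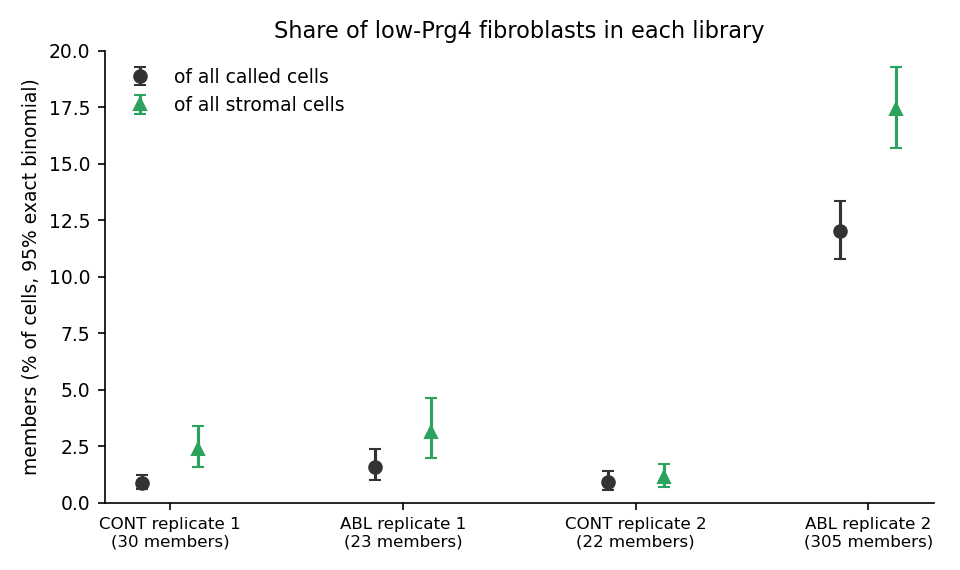
Low-*Prg4* fibroblasts as a percent of all called cells (black circles) and of stromal cells (green triangles) in each of the 4 libraries, with 95% exact binomial intervals. ABL replicate 2, at 12% and 17.4%, lies above the other libraries, which stay at or below 3.12%.

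ABL replicate 2 differed from its control in the sex of the cells as well. *Xist*, the RNA that silences an X chromosome in female cells, was found in 90.0%, 82.6%, 72.7% and 0% of low-*Prg4* fibroblasts of CONT replicate 1, ABL replicate 1, CONT replicate 2 and ABL replicate 2. In ABL replicate 2, 234 of the 305 members had a UMI of a Y-linked gene without *Xist*, and the other 71 had neither. CONT replicate 2 held 15 members with *Xist* alone and 5 with Y-linked genes alone. In reticular cells (at least 2 *Adipoq* UMIs) *Xist* was found in 47.1%, 78.7%, 75.5% and 0.382%, and Y-linked genes in 30.6%, 13.1%, 23.3% and 63.7%, so their mixture differed in replicate 1 as well. The cells of CONT and ABL were therefore not the same mixture of sexes, and in replicate 2 sex, condition and library cannot be told apart for most members. Whether the mice themselves differed was not tested. Pairing by animal may not hold in either replicate, and least in replicate 2, which bears on every fit below that has the replicate as a block. Called cells of CONT and ABL shared 5 barcodes in replicate 1 and 1 in replicate 2, and none was a member.

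The reporter was present in almost every low-*Prg4* fibroblast. A *tdTomato* UMI was found in 96.7%, 95.7%, 90.9% and 97.4% of them, in the library order above, against 28.8%, 42.3%, 25.5% and 63.4% of hematopoietic cells. Thinned to 1000 UMIs per cell, the shares were 83.3%, 78.3%, 50% and 72.8% in members and 7.1%, 12.1%, 4.1% and 28.2% in hematopoietic cells. The members' median depth was 5562.5, 6800, 18678.5 and 12028 UMIs per cell and their median number of genes 1984.5, 2435, 4089 and 3029. The CONT replicate 2 members were thus few but the most deeply counted.

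The edges of the class were not equally sharp. In ABL replicate 2, 14 members had between 0.5% and 1% of UMIs from *Prg4*, and 15 cells outside had between 1% and 2%. The highest member value was 0.955% and the lowest value outside was 1.03%. In the other libraries no member exceeded 0.295%. On the side of the counted genes, 32 cells of ABL replicate 2 had 3 of them, just inside, and 42 had 2, just outside. The median member had 4, 5, 5 and 6 of the 8 counted genes.

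Most fibroblast genes that the rule did not use were higher in members than in reticular cells. Of 14 check genes, 12 had a higher level in CPM (a gene's UMIs in each 1000000 UMIs summed over a class) in low-*Prg4* fibroblasts than in reticular cells in all 4 libraries, and the exceptions were *Fbn1*, a microfibril component, and *Ogn*, which encodes osteoglycin. Over the whole lists of genes that the rule does not use, this held for 11 of 15 fibroblast and adventitial genes and 6 of 8 periosteal genes. It also held for 6 of 16 collagen chains, 3 of 22 immediate early and heat-shock genes and 1 of 13 glycolysis and hypoxia genes. The share of all genes for which it held is not given here. These counts set members beside reticular cells only, not beside *Prg4*-high or *Tnn*-positive cells. *Lum* (chr10:97565128-97572703, GRCm38), which encodes the collagen-binding proteoglycan lumican, was at 4536, 1723, 1884 and 4285 CPM in members and at 191, 103, 33.6 and 145 CPM in reticular cells, in the order CONT replicate 1, ABL replicate 1, CONT replicate 2 and ABL replicate 2, which is kept from here on. *Gsn*, the actin-severing protein gelsolin, was at 8381, 11967, 3088 and 3070 CPM against 301, 223, 58.7 and 228. The lowest member value of either gene was above every reticular value.

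*Igfbp6*, a binding protein for insulin-like growth factors, was at 716, 978, 296 and 1993 CPM in members, with 12.8 CPM as the highest value in reticular cells. *Col14a1*, a collagen found on the surface of collagen fibrils (chr15:55307750-55520803), was at 319, 127, 1041 and 1023 CPM and at most 10.0 CPM in reticular cells. A *Col14a1* UMI occurred in 73.3%, 43.5%, 95.5% and 89.8% of members, against 2.4%, 1.6%, 0% and 2.7% of hematopoietic cells, which should lack it.

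**Figure D2:**
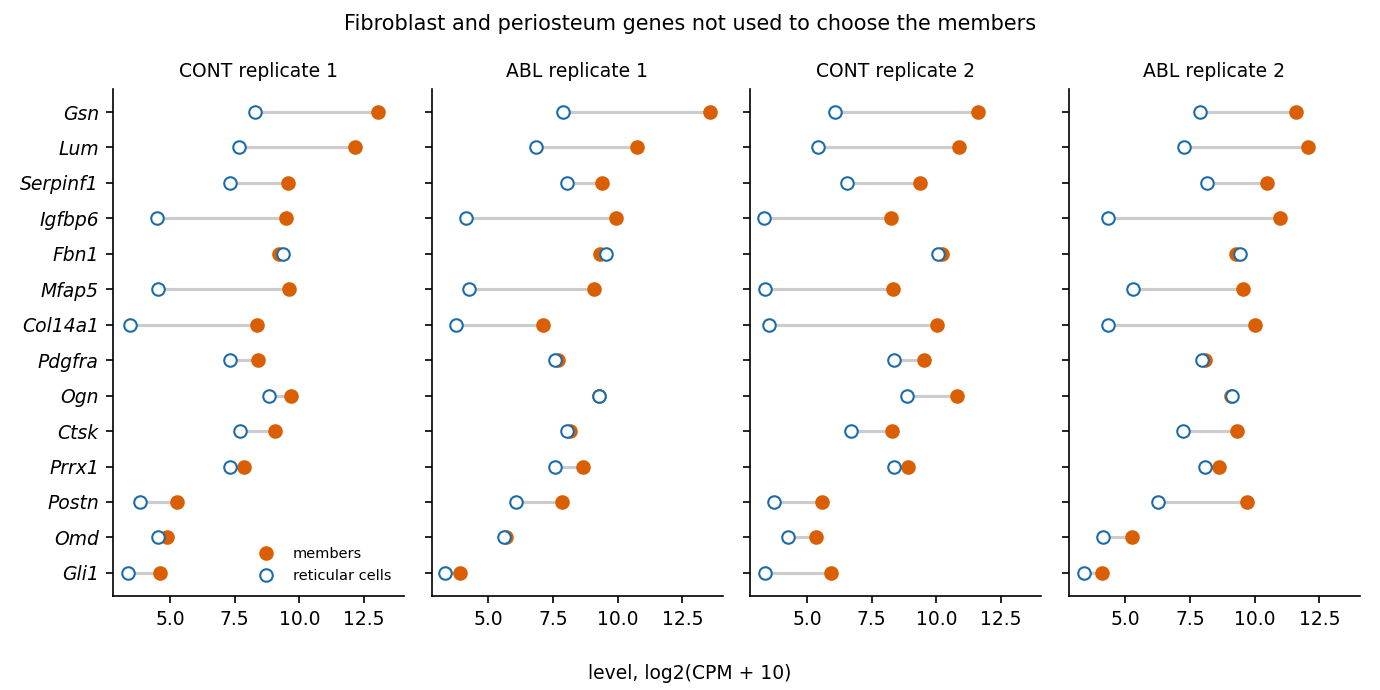
Levels of 8 fibroblast genes and 6 periosteum genes, log2(CPM + 10), in low-*Prg4* fibroblasts (orange) and reticular cells (open blue) of each library. *Gsn*, *Lum*, *Igfbp6*, *Mfap5* and *Col14a1* are far apart in every library, and *Fbn1* and *Ogn* overlap in some.

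The periosteal side of the name rested on less. *Ctsk*, a collagen-degrading protease that marks periosteal progenitors as well as osteoclasts, was at 517, 274, 300 and 627 CPM in members, and *Prrx1*, a limb mesenchyme transcription factor, at 223, 390, 466 and 388 CPM. *Postn*, which encodes periostin, was at 29.0, 218, 37.3 and 831 CPM. *Gli1*, a target of hedgehog signaling, was found in 2, 1, 9 and 26 members, or 6.67%, 4.35%, 40.9% and 8.52%. All of these were above reticular cells in each library, yet *Postn* was low in both CONT libraries, and *Gli1* was found in fewer than 1 in 10 members outside CONT replicate 2.

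Ranked by the lowest of the 4 log2 ratios over reticular cells (10 CPM added), the leading genes after *Igfbp6* (4.92) were *Ly6c1* (4.36), a surface protein related to Sca-1, the proteoglycan decorin gene *Dcn* (4.26), and *Mfap5* (4.24), a microfibril protein. *Ltbp4*, which tethers latent TGF-β, followed at 4.06 for 1 of the 2 identifiers the files give this symbol. *Lum* (3.94), *Gsn* (3.69), *Nbl1* (3.46), a BMP antagonist, and *Tppp3* (3.40), a gene known from tendon sheath cells, came next. *Col14a1* (3.36), *Meg3* (3.22), *Pdpn* (3.17), *Apod* (3.15), *Col3a1* (2.71) and *S100a4* (2.68) completed the 15.

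Collagens and proteoglycans were also among the most abundant transcripts of members, where 1 UMI stands for 1 captured transcript whatever its length. *Col3a1* was at 8256, 6858, 11692 and 18940 CPM, *Dcn* at 9058, 6518, 6826 and 10394 CPM, and *Sparc*, a collagen-binding matricellular protein, at 6132, 4622, 7469 and 10964 CPM. The most abundant of all by mean CPM was *Gm42418*, a transcript that overlaps ribosomal RNA sequence, at 551, 1216, 129434 and 16669 CPM. It was similarly uneven in reticular cells (1024, 2487, 134640 and 55862 CPM).

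RNA of other cell types was uneven among members. The 7 erythroid markers summed to 25260, 4901, 198 and 2454 CPM, with *Hbb-bs* as the most abundant, and single cells held up to 25.9% of their UMIs from them in CONT replicate 1 and up to 35.1% in ABL replicate 2. The 8 neutrophil markers summed to 8478, 26873, 116 and 71.5 CPM, with *S100a8* leading in replicate 1 and 1 cell of ABL replicate 1 at 31.2%. The 8 macrophage markers summed to 397, 1080, 11.6 and 67.4 CPM, led by *Lyz2*, and the 8 lymphoid markers to 29.0, 699, 0 and 1.80 CPM, led in ABL replicate 1 by *Nkg7*.

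Muscle markers (6 genes) were near the floor, at 0, 5.07, 0 and 1.54 CPM. Endothelial (9 genes) and mature osteoblast (5 genes) markers were higher, and 8 of 23 members of ABL replicate 1 had at least 2 of the osteoblast genes. Endothelial markers summed to 43.5, 35.5, 23.3 and 51.4 CPM, with *Cdh5* at 0 in all libraries but ABL replicate 2, and osteoblast markers to 96.7, 198, 72.2 and 41.9 CPM. Mural markers summed to 43.5, 1232, 755 and 74.8 CPM, led by *Rgs5* in ABL replicate 1 and CONT replicate 2. The 13 genes of reticular cells and their niche summed to 4662, 3264, 8894 and 2032 CPM, all 13 detected in each library, against 22736, 20413, 31244 and 25213 CPM in reticular cells. The part of these RNAs in the comparisons that follow was not tested, except where values without the cells concerned are given.

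Whether low-*Prg4* fibroblasts of ablated femurs differed from those of contralateral femurs was tested on UMIs summed per library. In the ABL members, *Cthrc1*, *Postn* and *Tnc* rose, 3 of 13 injury-associated matricellular genes tested, as did *Comp* (1 of 3 tendon and ligament genes) and the protease gene *Mmp3*. *Lepr*, *Kitl* and *Ebf3* fell, 3 of 11 genes of reticular cells and their niche. None of 16 listed collagen chains or 13 fibroblast and adventitial genes passed the test, although *Col6a5*, a collagen VI chain outside that list, fell. Of 4407 genes tested, 42 rose (0.953%) and 98 fell (2.22%) in edgeR's quasi-likelihood test with the replicate as a block and Benjamini-Hochberg adjustment (adjusted p under 0.05). The direction was the same in both replicates for 133 of the 140 genes and for 2330 of all 4407. These calls rest on 1 residual degree of freedom. Without the block 0 genes passed (179 at an unadjusted p under 0.05), and 0 passed without CONT replicate 1 (472 unadjusted), 0 without CONT replicate 2 (83 unadjusted), 6 without ABL replicate 2 and 79 without ABL replicate 1, in fits without the block. DESeq2 called 9 higher and 27 lower. With the profile of empty droplets subtracted, 13 of the 37 called genes that the lists and the largest changes name and that could be tested still passed. The 24 that did not included *Mmp3* (log2 fold change 5.75, edgeR adjusted p = 0.118), *Postn* (3.81, 0.0546), *Tnc* (2.50, 0.162), *Tnfaip6* (3.05, 0.328), *Comp* and *Lepr*. Adjusted p-values below are those before subtraction unless it is named, so they do not show which calls it ended. Of the 140 called genes, 131 could be tested after subtraction and all 131 kept their direction. The 98 falls include *Xist*, which follows the sex of the cells.

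*Cthrc1* (chr15:39076932-39087121), which encodes a secreted protein of healing tissue, was at 0, 152, 21.0 and 574 CPM and was found in 0, 4, 1 and 212 cells. Both ABL libraries were above both CONT libraries, although 1 cell held 80.0% of the UMIs of ABL replicate 1. The rise was 5.16 ± 0.78 (log2, SE, n = 2 libraries per condition; edgeR adjusted p = 1.58e-08). Within replicate 1 the level was at least 10.5-fold higher in ABL, taking 3 counts as the floor of the CONT library, and within replicate 2 it was 27.4-fold higher (counting interval 14.4 to 60.0).

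*Postn* (chr3:54361109-54391037) rose by 3.83 ± 0.76 on the log2 scale (edgeR adjusted p = 8.14e-05), from 29.0 and 37.3 CPM in CONT to 218 and 831 CPM in ABL. A *Postn* UMI was found in 13.3%, 39.1%, 13.6% and 68.5% of members, or in 6.7%, 26.1%, 4.5% and 47.5% after thinning to 2000 UMIs, with 0.9%, 10.5%, 0% and 4.6% unthinned in hematopoietic cells. *Tnc*, tenascin-C, rose from 29.0 and 41.9 CPM to 213 and 195 CPM (2.48 ± 0.53, edgeR adjusted p = 0.000327). Groups did not overlap for either gene. Of 13 injury-associated matricellular genes tested, these 2 and *Cthrc1* rose, *Thbs1*, which encodes thrombospondin-1, fell (-1.85), and the median log2 fold change was 0.05, beside 0.03 over all genes tested.

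*Comp*, cartilage oligomeric matrix protein, an abundant protein of tendon and cartilage (chr8:70373558-70382066), was at 19.3, 471, 319 and 2745 CPM and in 2, 10, 9 and 278 members. The ABL libraries were above the CONT libraries, and 1 cell held 82.5% of the UMIs of CONT replicate 2. It rose by 3.69 ± 0.91 (edgeR adjusted p = 0.00317). In ABL replicate 2 *Comp* was also in the free RNA, at 1634 CPM in empty droplets and in 11.5% of hematopoietic cells, against 91.1% of members, and with the profile of empty droplets subtracted it was at 16.7, 505, 320.5 and 2941 CPM, with a log2 fold change of 3.86 (edgeR adjusted p = 0.0785).

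Tendon and ligament genes were found mainly in ABL replicate 2 and in 1 cell of CONT replicate 2. Of 9 such genes, 3, 4, 8 and 9 were detected, summing to 33.9, 547, 1258 and 3593 CPM, with *Thbs4* leading in CONT replicate 2 and *Comp* in ABL replicate 2. Without *Comp* the sums were 14.5, 76.0, 939 and 848 CPM. In CONT replicate 2, 396 of the 403 UMIs behind that sum came from 1 member, and without it the sum was 17.5 CPM. In ABL replicate 2, 204 of 305 members had a UMI of these 8 genes, and without the cell with most of them the sum was 798 CPM. In empty droplets of that library all 9 genes, *Comp* included, summed to 2567 CPM. The part of free RNA in these counts was not tested. Of the 9 genes 3 could be tested, *Comp* among them, with a median log2 fold change of 0.83, and *Comp* was the only call.

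*Mmp3* (chr9:7445822-7455975), stromelysin-1, a matrix metalloproteinase, had the largest fitted rise of the calls ranked, 5.82 ± 0.98 (edgeR adjusted p = 1.09e-06). The calls ranked, here and below, had the same direction in both replicates and a mean of at least 50 CPM. It was at 14.5, 35.5, 0 and 660 CPM and in 2, 1, 0 and 162 members, so the rise lay in replicate 2. In replicate 1 the ratio was 2.45 (counting interval 0.558 to 14.7, from 3 and 7 UMIs), and in replicate 2 *Mmp3* was at least 94.5-fold higher. Among 13 matrix proteases and inhibitors tested it was the only rise. *Adamts1*, an aggrecan- and versican-cleaving protease, fell from 537 and 1213 CPM to 91.2 and 140 CPM (-2.86 ± 0.76, edgeR adjusted p = 0.00929), and its relative *Adamts5* also fell (-2.67). The median over the 13 was -0.20.

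Secreted Wnt antagonists gave 2 rises. *Sfrp2* (chr3:83766321-83774316), which binds Wnt ligands, was at 14.5, 203, 2.33 and 199 CPM, in 2, 10, 1 and 55 members. The ABL values were alike and far above CONT, and the rise of 4.91 ± 0.67 (edgeR adjusted p = 2.97e-10) had an adjusted p of 0.00479 with empty droplets subtracted. *Dkk2*, a ligand of LRP co-receptors, had no UMI in either CONT library and was at 35.5 and 45.8 CPM in ABL, at least 2.45-fold higher in replicate 1 and at least 6.55-fold higher in replicate 2 (edgeR adjusted p = 0.000509). *Sfrp4*, a relative of *Sfrp2*, was lower in both ABL libraries than in both CONT libraries, at 5238, 1804, 5045 and 1032 CPM, a log2 fold change of -1.92 ± 0.96 that did not pass (edgeR adjusted p = 0.412). Of 4 Wnt antagonists tested 2 rose and none passed as a fall, and the median of 2.03 lies between 2 positive values and the negative ones of *Sfrp4* and *Dkk3* (-0.85).

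Among further rises, *Tnfaip6*, a hyaluronan-modifying protein induced in inflammation, was at 96.7, 182, 37.3 and 1087 CPM (2.94 ± 0.84, edgeR adjusted p = 0.0201). Complement *C3* was at 24.2, 350, 224 and 507 CPM (2.23 ± 0.68, edgeR adjusted p = 0.0384). *Cav1* (3.04), the caveola protein, *Fxyd6* (3.03), an ion pump regulator, and *Mgst3* (2.82), a glutathione transferase, were also among the largest rises. *Acta2*, smooth muscle actin, was at 0, 264, 16.3 and 37.3 CPM (3.03 ± 0.61, edgeR adjusted p = 0.000123). Its level was high in ABL replicate 1 only, where it lay in 4 cells, 1 of them with 51.9% of the UMIs, beside mural markers at 1232 CPM. *Cilp*, one of the counted genes, also rose (1.99), which the rule could have affected.

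**Figure D3:**
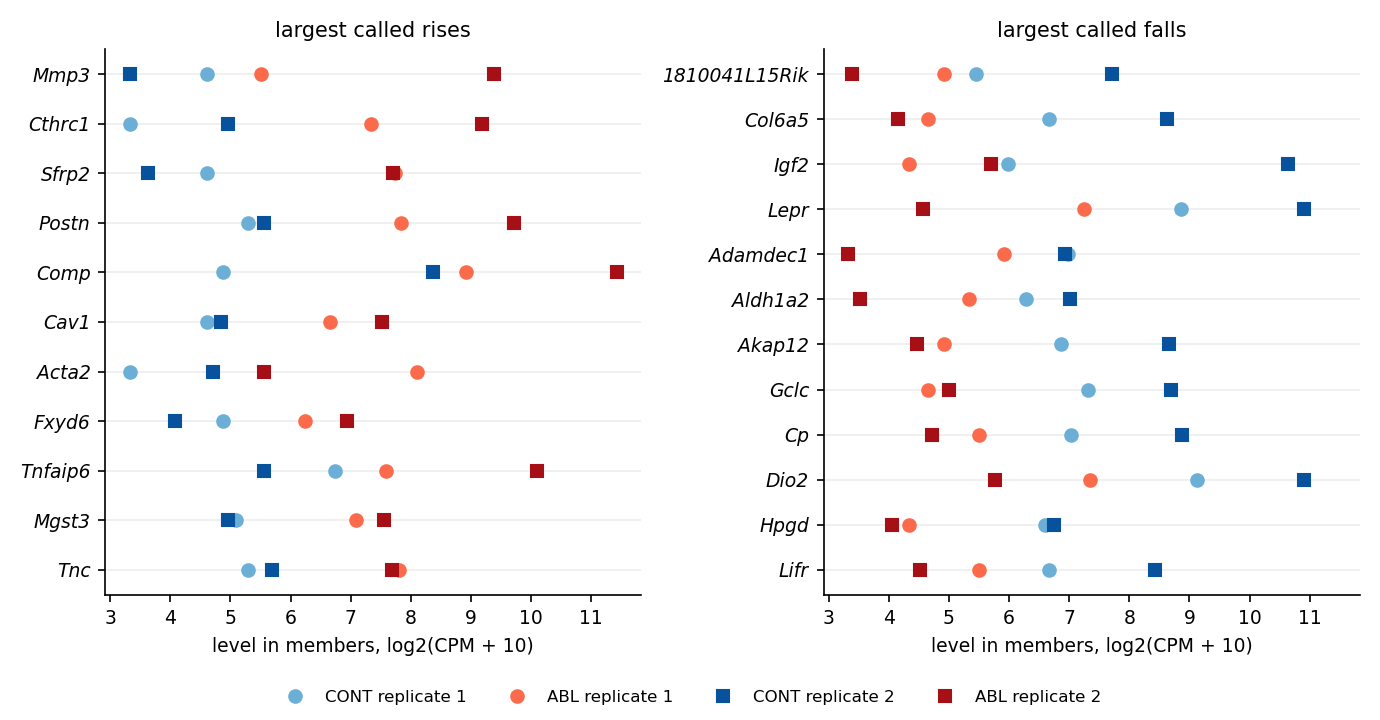
Levels, log2(CPM + 10), of the largest called rises (left) and the 12 largest called falls (right) in low-*Prg4* fibroblasts. Circles are replicate 1, squares replicate 2, blue CONT and red ABL, and for *Mmp3* and *Tnfaip6* the 2 libraries of replicate 1 lie near each other, while the falls are wider in replicate 2.

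The falls included genes that mark reticular cells. *Lepr* (chr4:101717404-101815352), the leptin receptor, was at 455, 142, 1914 and 13.6 CPM and was found in 24 of 30, 10 of 23, 20 of 22 and 24 of 305 members. CONT was above ABL in both replicates, most of all in replicate 2, and the fall was -4.49 ± 1.03 (edgeR adjusted p = 0.00103). For comparison, reticular cells were at 1056, 609, 2232 and 609 CPM, so CONT replicate 2 members approached the reticular level. The members with 5 or more counted genes showed it as well, at 273, 154, 2030 and 13.9 CPM, although under that stricter rule 0 genes passed in the test (228 at an unadjusted p under 0.05). With the profile of empty droplets subtracted, the log2 fold change of *Lepr* was -6.31 (edgeR adjusted p = 0.37), and with DESeq2 its adjusted p was 0.518.

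*Kitl*, which encodes stem cell factor, fell by 2.85 ± 0.56 (edgeR adjusted p = 6.51e-05), from 53.2 and 186 CPM to 35.5 and 12.3 CPM, and *Ebf3*, a transcription factor of reticular cells, fell by 2.73 ± 0.58 (edgeR adjusted p = 0.000278). *Cxcl12* itself, at 2191, 1323, 2420 and 465 CPM, had a log2 fold change of -1.57 ± 0.89 that did not pass (edgeR adjusted p = 0.524). Of 11 reticular and niche genes tested 3 fell and none rose, with a median of -1.69. *Runx2*, the osteoblast master transcription factor, fell by 2.39 ± 0.53, from 58.0 and 119 CPM to 30.4 and 14.1 CPM (edgeR adjusted p = 0.000529).

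*Igf2* (chr7:142650766-142666816), a fetal growth factor, was at 53.2, 10.1, 1593 and 42.2 CPM, in 5, 1, 18 and 28 members, and fell by 4.57 ± 0.98 (edgeR adjusted p = 0.000327). Its level in CONT replicate 2 was far above the other libraries. *Col6a5*, a collagen VI chain, was at 91.9, 15.2, 387 and 7.72 CPM (-4.95 ± 0.66, edgeR adjusted p = 1.04e-10), and *Dio2*, the deiodinase that activates thyroid hormone, at 551, 152, 1905 and 44.7 CPM (-3.72 ± 0.92, edgeR adjusted p = 0.00317). Both CONT libraries were above both ABL libraries for each of these.

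The remaining largest falls were *1810041L15Rik* (-5.93), *Adamdec1* (-4.35), an ADAM-like protease, *Aldh1a2* (-4.31), which makes retinoic acid, *Akap12* (-4.31), a kinase anchor, *Gclc* (-3.94), of glutathione synthesis, ceruloplasmin *Cp* (-3.74), *Hpgd* (-3.66), which degrades prostaglandins, and *Lifr* (-3.61), a cytokine receptor. *Il6* was at 193, 30.4, 226 and 44.5 CPM (-2.44 ± 0.51, edgeR adjusted p = 0.000187) and was the only call of 7 chemokines and cytokines tested. *Cd200*, one of 4 genes listed here for skeletal stem cells, taken from those the study names without the rule genes *Thy1* and *Ly6a* and not an independent choice, was at 513, 91.2, 200 and 26.7 CPM (-2.71 ± 0.58, edgeR adjusted p = 0.00031), and neither of the other 2 tested passed.

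The listed genes of the structural matrix gave 1 call. None of 16 collagen chains on the list passed, and their median log2 fold change was 0.12. *Col1a1* was at 4261, 3994, 5056 and 12462 CPM (0.60 ± 1.05, edgeR adjusted p = 0.914), and *Col3a1* had a log2 fold change of 0.21 ± 1.10 (edgeR adjusted p = 0.977). None of 7 small leucine-rich proteoglycans (median 0.06) or 13 fibroblast and adventitial genes (median 0.19) passed, and 1 of 15 elastic fibre genes fell (*Ltbp2*, which binds fibrillin, -2.40). With standard errors near 1, even changes of several fold in these abundant genes could fail to pass, as that of *Sfrp4* above did.

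Other lists gave few calls. Of 6 periosteal genes tested *Postn* alone rose (median 0.02), and of 9 osteoblast-signature genes that the study itself lists, and so not an independent choice, *Postn* and *Tnc* rose and *Runx2* fell (median 0.05). The 8 contractile genes gave *Acta2* and *Tpm2* (1.62) as rises (median 0.08). *Bmp5* (-2.11), a bone morphogenetic protein, was the only call of 7 BMP, activin and TGF-β genes (median -0.23). Of 10 complement genes *C3* rose (median 0.17), of 8 genes of the IGF axis *Igf2* fell (median -0.81), and none of 10 glycolysis and hypoxia genes passed (median 0.76). Among genes that respond to tissue dissociation, 1 of 22 fell (*Hspa1b*, a heat-shock protein, median -0.13), and 1 of 6 interferon-stimulated genes fell (*Gbp2*, median -0.40).

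Proliferation was rare. At least 2 of 5 cycling genes were found in 2 of 30, 3 of 23, 0 of 22 and 5 of 305 members, or 6.67%, 13.0%, 0% and 1.64%, and the intervals of CONT and ABL overlapped within each replicate. *Ube2c* was the only call among 7 proliferation genes (2.38), and 1 cell held 91.7% of its UMIs in ABL replicate 1.

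The part of sex in these changes was not tested. The members with a Y-linked gene and no *Xist* numbered 1, 4, 5 and 234, too few in 3 libraries. Between the 5 and 234 such cells of replicate 2 the log2 ratio of *Gclc* was -1.34, against -3.70 over all members of that replicate, and that of *Cthrc1* was 5.89 against 4.24, with no *Cthrc1* UMI in the 5 CONT cells. All 24 of the 12 largest rises and 12 largest falls had the same sign in these cells as over all members of the replicate, and 15 of the 24 ratios were larger in size, although 8 of the rises had no UMI in the 5 CONT cells and 1 of the falls had none in the 234 ABL cells. These genes were chosen for large changes in 1 direction, and the 234 cells are also most of the ABL members on the other side. The shared sign was thus largely set beforehand, and no conclusion about sex is drawn from it.

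The change between CONT and ABL was then compared between low-*Prg4* fibroblasts and reticular cells of the same libraries. Reticular cells numbered 1067, 367, 1622 and 262. In an edgeR interaction test over 11811 genes, the change was higher in members for 85 genes (0.72%) and lower for 156 (1.32%). DESeq2 called 6 and 34, and edgeR with no class by replicate term 17 and 53. Without TMM scaling the edgeR counts were 80 and 288, with the median difference over all genes at -0.14 in place of 0.12, and with no replicate block 0 genes passed (322 at an unadjusted p under 0.05). In reticular cells themselves 1.83% of genes rose and 1.55% fell.

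The estimated upper limit of free RNA differed between CONT and ABL in replicate 2. Taking the largest share of the empty-droplet profile that the blood-cell genes allow, free RNA made up at most 15.2%, 8.50%, 0.665% and 23.0% of the UMIs of members and at most 34.8%, 38.0%, 9.68% and 40.7% of those of reticular cells. The profile itself changed in both replicates, with *Col1a1* at 396, 5289, 353 and 11623 CPM and *Postn* at 13.4, 166, 35.1 and 324 CPM in empty droplets. Blood-cell RNA was uneven over the members of ABL replicate 2. Of these 305 cells, 25 had at least 2 erythroid genes, and 2 held over 5% of their UMIs from them. Neutrophil markers summed to 71.5 CPM in these members, against 11231 CPM in empty droplets. How far single cells set the limit of 23.0% was not tested. Values after subtraction of this upper limit of free RNA are given beside the differences that follow.

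*Cthrc1* and *Postn* rose in the UMIs of both kinds of cell as counted. Their log2 fold changes in reticular cells were 5.43 and 3.96, and the difference from members was 0.04 ± 0.38 for *Cthrc1* (edgeR adjusted p = 1). With free RNA subtracted, both genes were at 0 in reticular cells of all 4 libraries, while ABL members kept 154 and 633 CPM of *Cthrc1* and 219 and 939 CPM of *Postn*. The differences were then 7.73 and 4.07 and did not pass (edgeR adjusted p = 1 for each). *Comp* and *Sfrp2* rose further in members, with log2 differences of 2.49 ± 0.57 (edgeR adjusted p = 0.0016) and 3.58 ± 0.70 (edgeR adjusted p = 7.09e-05), and of 6.06 and 3.89 after subtraction, which both still passed. *Angptl1*, a secreted angiopoietin-like protein (chr1:156838562-156861078), went in opposite directions. It was at 62.9, 218, 128 and 644 CPM in members and at 55.1, 13.7, 161 and 15.5 CPM in reticular cells, a log2 difference of 5.14 ± 0.52 (edgeR adjusted p = 5.37e-19). *Mmp3* (7.34 ± 1.41), *Myoc* (3.86 ± 0.73), *Tnfaip6* (3.23 ± 0.53) and *C3* (3.16 ± 0.51) were also higher in members, of which *Mmp3* was all but absent from reticular cells, at 0.65 CPM or less. After subtraction *Angptl1*, *Myoc*, *Tnfaip6* and *C3* still passed, with differences of 6.93, 9.82, 5.89 and 3.63, and *Mmp3*, with a difference of 11.04, did not (edgeR adjusted p = 0.578).

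In the other direction, a negative difference passed for 4 of 16 collagen chains and 3 of 13 matricellular genes tested, beside 1.32% of all genes. The same held for 4 of 11 osteoblast-signature, 5 of 18 elastic fibre and 4 of 15 protease and inhibitor genes, with 0, 1 and 1 positive ones. After subtraction 2 collagen chains and 2 matricellular genes still had a negative difference that passed, *Col8a1*, *Col14a1*, *Thbs1* and *Thbs2*, and 1 collagen chain and 2 matricellular genes had a positive one that passed. In the osteoblast-signature, elastic fibre and protease lists 4, 2 and 2 negative differences then passed, and 1, 2 and 2 positive ones. Among the negative osteoblast-signature differences, *Alpl* and *Runx2* passed both before and after subtraction. *Col1a1* and *Spp1* passed before only, and *Bglap* and *Pth1r* after only. *Col1a1* rose by 3.52 in reticular cells, from 376 and 179 CPM to 4118 and 2562 CPM, while it was already at 4261 and 5056 CPM in CONT members, and the log2 difference was -2.84 ± 0.69 (edgeR adjusted p = 0.00438). With free RNA subtracted, reticular *Col1a1* was at 346, 3243, 159 and 0 CPM, and the difference turned to 1.97 and did not pass (edgeR adjusted p = 0.719). *Spp1*, osteopontin, rose by 3.46 in reticular cells (difference -3.33 ± 0.53, edgeR adjusted p = 1.78e-07), which also did not pass after subtraction (-3.25, edgeR adjusted p = 0.169). Reticular *Spp1* was then at 94.8, 0, 113 and 2472 CPM, so ABL stayed above CONT in replicate 2 only. Because an upper limit was subtracted, the 0 cannot show that the rise was absent in replicate 1. *Mgp*, matrix Gla protein, an inhibitor of calcification, rose by 2.66 in reticular cells and had a difference of -3.46 ± 0.61 (edgeR adjusted p = 4.66e-06), or -3.05 after subtraction (edgeR adjusted p = 0.00415). *Igf2*, which fell in members, rose in reticular cells from 20.5 and 26.7 CPM to 184 and 144 CPM (difference -6.95 ± 0.61, edgeR adjusted p = 1.62e-26). After subtraction its reticular levels were 26.6, 250.2, 26.0 and 192 CPM and the difference -7.66 (edgeR adjusted p = 2.57e-20). The noncoding RNA *H19*, imprinted together with *Igf2*, had a difference of -4.79 ± 0.51, or -4.97 after subtraction.

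Of the 8 largest excesses in members, 5 were granule genes of blood cells that came from 1 member. *Nkg7*, *Elane*, *Ctsg*, *Ms4a3* and *Mpo* had differences of 4.63 to 7.95, and 98.2% to 100% of their UMIs in ABL replicate 1 came from 1 member. When 2 members with at least 20 UMIs of these genes were left out, none of the 5 passed, the interaction counts were 68 and 141, and 35 genes rose and 85 fell in members.

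Cells of the same rule with at least 1% of UMIs from *Prg4* were found almost only in ABL replicate 2, where there were 121, beside 1 in ABL replicate 1 and none in CONT. In that library low-*Prg4* fibroblasts and *Prg4*-high cells shared *Dcn* (10394 and 11039 CPM) and differed in other genes. *Mgp* was at 3378 CPM in members and 20.1 CPM in *Prg4*-high cells, a log2 ratio of 6.81. *Apod* (5.98), an apolipoprotein of fibroblasts, *Mmp3* (5.40), *Igf1* (5.35), *C3* (4.86), *Mfap4* (4.70), *Ogn* (4.63) and *Angptl1* (4.62) followed. *Igf1* was at 1701 CPM in members and 31.9 CPM in *Prg4*-high cells.

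Genes of the opposite pattern were *Clic5*, an ion channel-related protein, at 4.63 CPM in members and 1363 CPM in *Prg4*-high cells (6.55), *F13a1* (5.78), a subunit of clotting factor XIII, *Col22a1* (4.89), a collagen of tissue junctions, and *Hbegf* (4.71), a ligand of the EGF receptor. *Cystm1* (4.62), *Tspan15* (4.31), *Pla1a* (4.30) and *Sema3a* (4.12), an axon guidance factor, completed the list. With 1 library there is no replicate of these ratios.

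**Figure D4:**
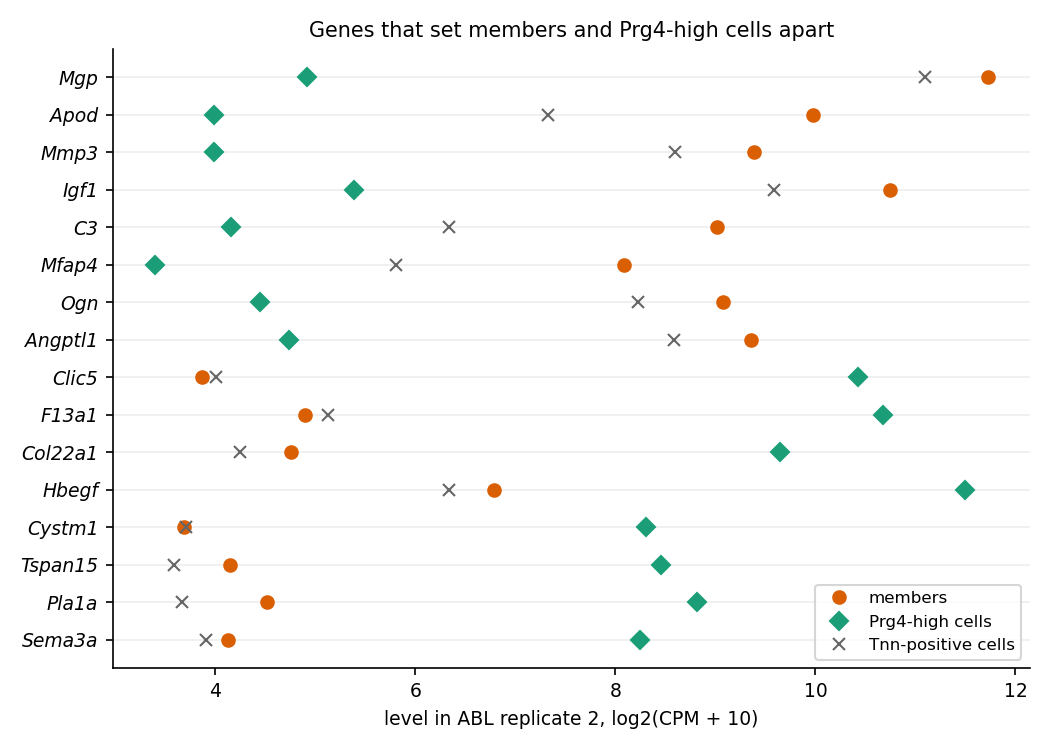
Levels in ABL replicate 2, log2(CPM + 10), of 8 genes higher in low-*Prg4* fibroblasts (orange circles) and 8 higher in *Prg4*-high cells (green diamonds), with *Tnn*-positive cells (grey crosses) for reference. The *Tnn*-positive cells lie nearer to the members than to the *Prg4*-high cells for 15 of the genes, *C3* being the exception.

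Among the 305 low-*Prg4* fibroblasts of ABL replicate 2, a few genes were concentrated in small sets of cells. The tenth with most UMIs (31 cells) held 98.7% of the UMIs of *Tnmd*, 96.8% of *Pi16* and 92.8% of *Sfrp2*, against 37.9% of *Comp*, 27.1% of *Col3a1* and 25.8% of *Lum*. *Tnmd* encodes tenomodulin, a membrane protein of tendon and ligament cells, and *Pi16* a peptidase inhibitor of adventitial fibroblasts.

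The 34 members with a *Tnmd* UMI (11.1%) had all 8 other tendon and ligament genes more often than the other 271. *Kera*, keratocan, was found in 55.9% of them and in 14.8% of the rest, and *Fmod*, fibromodulin, in 67.6% and 27.7%. Of the Wnt antagonists, *Sfrp2* was found in 64.7% and 12.2%, and *Sfrp4* in 20.6% and 63.1%. Genes outside the list differed as well, with *Thbs2* in 97.1% and 59.0% and *Efemp1* in 8.82% and 29.2%. Median depths were 13525.5 UMIs with *Tnmd* and 11930 without. The share of all genes found more often in the deeper cells with *Tnmd* is not given here. A *Tnmd* UMI was found in 0.38% of hematopoietic cells of this library.

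The 45 members with a *Pi16* UMI (14.8%) had 13 of 15 fibroblast and adventitial genes more often than the other 260, the exceptions being *Lum* (97.8% and 98.1%) and *Igfbp6* (95.6% and 96.5%). *Efemp1*, a fibulin, was found in 62.2% and 20.8%, *Entpd2*, which hydrolyzes extracellular nucleotides, in 75.6% and 32.3%, and *Mfap5* in 95.6% and 62.7%. *Tnc* was found in 15.6% of them and in 54.6% of the rest, *Fmod* in 11.1% and 35.8%, and *Sfrp4*, the Wnt antagonist, in 88.9% and 53.1%. *Tnmd* was found in 3 of them (6.67%), against 11.9% of the rest. Median depths were 12605 UMIs with *Pi16* and 11869.5 without, and the share of all genes found more often with *Pi16* is not given here. Outside the members, a *Pi16* UMI was found in 1.53% of reticular cells and in 20.2% of hematopoietic cells of the library. Thinned to 2000 UMIs per cell, the shares were 8.52% in members, 0.763% in reticular cells and 6.87% in hematopoietic cells, so blood cells do not serve as a background for this gene. The level was 112 CPM in members and 20.9 CPM in hematopoietic cells, and the highest member reached 4173 CPM.

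A further set, 25 members with a UMI of *Chad*, chondroadherin, a cartilage matrix protein, carried *Cilp2* in 52.0%, against 3.57% of the rest, *Fmod* in 72.0% and 28.6%, and *Thbs4* in 68.0% and 31.4%. The 9 cartilage genes, *Chad* among them, summed to 3040 CPM in members and 5221 CPM in empty droplets of this library. The part of free RNA in the *Chad* set was not tested. All of these sets were drawn from the same cells that are described, in 1 library, and were not tested.

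**Figure D5:**
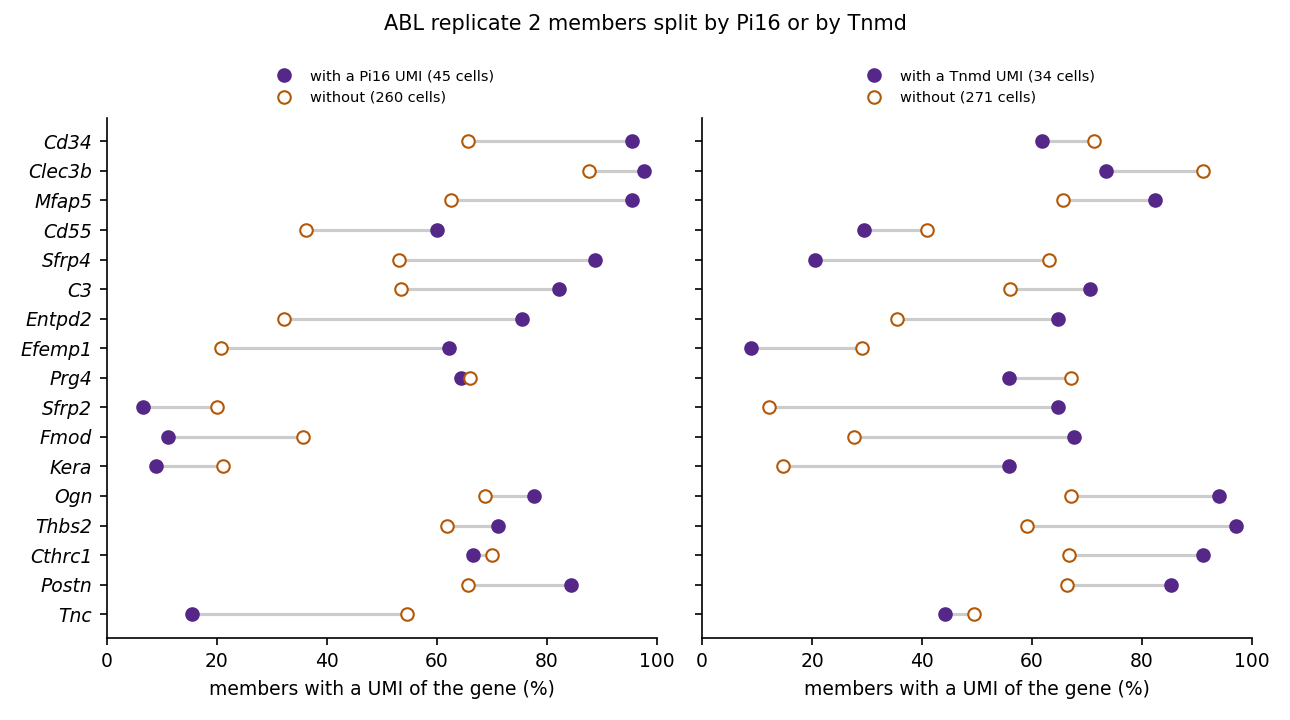
Percent of ABL replicate 2 low-*Prg4* fibroblasts with a UMI of each gene, among members with (filled) and without (open) *Pi16* (left; 45 and 260 cells) or *Tnmd* (right; 34 and 271 cells). *Sfrp4* and *Efemp1* are more frequent with *Pi16* and less frequent with *Tnmd*, and *Sfrp2*, *Fmod* and *Kera* the reverse.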

How the data were processed

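The authors made the files with Cell Ranger (mm10 with reporter sequences) and analysed them in Seurat, per the submitters' processing notes; versions are not given in the sources used here. The deposited values are raw UMI counts of 28006 features over all barcodes, with no filter. Cells needed 500 genes, 2700 UMIs and at most 20% mitochondrial UMIs (v2), or 1000 genes, 4000 UMIs and 15% (v3). Doublets were not removed. Levels are CPM of UMIs summed over a class. Sums were tested in edgeR 4.0.16 (TMM, low counts filtered, 1 residual degree of freedom), with fits checked on simulated data. In the interaction fit the library was the block, with class, condition by class and replicate by class as terms. Log2 ratios between classes used a pseudocount of 10 CPM. Coordinates are those of GENCODE M21.

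The contralateral femur is the control of the same replicate, and deviations of CONT and ABL correlated across 4407 genes (0.558). The CONT and ABL libraries of each replicate share a chemistry, which differs between the replicates, so the correlation includes it. The sexes of CONT and ABL cells differed, most in replicate 2 and among reticular cells in replicate 1 too, so the block may not pair animals.

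Members and gene lists were chosen with earlier results of these data known. Named genes are those of the lists, the 12 largest calls each way (same direction in both replicates, mean of at least 50 CPM), the 15 largest excesses over reticular cells and 8 each way against *Prg4*-high cells (at least 100 CPM), 8 interaction calls each way and the 10 highest levels. Of these, 1 gene is not reported here. Alternatives changed the member rule, cell filter, scaling, free RNA, tool (DESeq2 1.42.0) and libraries.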

Additional observations from a re-analysis of the deposited data

Results flagged for a closer look

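Changes between CONT and ABL that differed from those of reticular cells, by the edgeR interaction test, are listed here as values. The difference was positive (higher in low-*Prg4* fibroblasts) for 85 genes and negative for 156. The positive log2 differences were 7.95 for *Nkg7*, 7.34 for *Mmp3*, 5.90 for *Elane*, 5.14 for *Angptl1*, 4.99 for *Ctsg*, 4.74 for *Ms4a3*, 4.63 for *Mpo* and 3.86 for *Myoc*, a secreted glycoprotein of fibroblasts and glia. *Nkg7*, *Elane*, *Ctsg*, *Ms4a3* and *Mpo* came from 1 cell of ABL replicate 1. With empty droplets subtracted, *Mmp3* had a difference of 11.04 and did not pass (edgeR adjusted p = 0.578). *Myoc* was at 116, 725, 30.3 and 67.1 CPM in members.

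The negative log2 differences were -6.95 for *Igf2*, -6.71 for *Col8a2*, a basement membrane collagen, -4.79 for *H19*, -4.41 for *Hpgd*, -4.38 for *Col15a1*, -4.29 for *F13a1*, -4.10 for *Tspan11* and -3.82 for *Itgbl1*. *Col8a2* fell from 102 and 109 CPM to 25.3 and 39.6 CPM in members and rose from 1.14 and 0.465 CPM to 38.0 and 21.8 CPM in reticular cells. *Col15a1* was at 82.2, 81.1, 233 and 174 CPM in members and rose in reticular cells from 0.975 and 0.511 CPM to 4.34 and 21.4 CPM. With empty droplets subtracted, *F13a1* (-5.23) and *Col15a1* (-0.21) did not pass (edgeR adjusted p = 1 for each).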

How the results depend on the processing

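In members, 42 genes were higher and 98 lower. The numbers were 74 higher with no filter on low counts, 6 and 19 with the profile of empty droplets subtracted, 0 and 0 with at least 5 counted genes, 63 lower with *Prg4* under 0.1%, 13 and 49 without members carrying markers of other types, 27 higher with a *tdTomato* UMI, and 9 and 27 with DESeq2. With no replicate block they were 0 and 0 (179 at an unadjusted p under 0.05), and with 1 library left out, which leaves no degree of freedom for the block, 0 to 30 higher and 0 to 49 lower. Of the 140 genes those tested kept their direction in every alternative except no *Prg4* limit (136 of 137) and leaving out ABL replicate 1 (137 of 140), CONT replicate 2 (119 of 120) or ABL replicate 2 (127 of 129). *Ube2c* ranged from -1.21, without ABL replicate 1, to 9.82 with 1 library left out.

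In the interaction, counts were 17 and 53 with no class by replicate term, 138 higher with empty droplets subtracted (171 of the 241 calls still passed in the same direction, and of 234 tested 224 kept it), 288 lower without TMM, 6 and 34 with DESeq2, and 0 and 0 with no replicate block. *Ms4a3* turned to -4.48 without the members holding granule genes, a setting chosen after seeing the data, as was leaving out members with over 5% blood-cell UMIs (43 higher and 95 lower in members). The causes were not tested.

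The share of members in CONT replicate 1 was 0.585% with at least 4 counted genes, without members carrying other markers, or with cells thinned to 2000 UMIs, 0.351% with at least 5, and 1.48% among cells with *tdTomato*. In ABL replicate 1 it was 0.834% with at least 5 and 0.626% without other markers, and in CONT replicate 2 0.542% and, thinned, 0.501%. In ABL replicate 2 it was 10.7% and 9.45% with at least 4 and 5 counted genes, 9.84% with *Prg4* under 0.1%, 16.8% with no *Prg4* limit, 13.4% among cells with *tdTomato* and 16.6% thinned. ABL replicate 2 had the highest share under each of these. With 22 to 30 members in 3 libraries, 1 UMI or 1 cell can set a level.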
